A study of Melitaea cinxia with 170 samples.

Results

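Thorax gene expression was compared between male Glanville fritillary butterflies (Melitaea cinxia) that had been made to fly and control males that had not, both frozen on the morning after. The comparison took every butterfly labelled male at 20 h, 15 of the 85 in the series, of which 11 had flown and 4 were controls. Of the flown males 5 came from Åland (AL) and 6 from Pikku Tytärsaari (PT), separate islands in the Baltic Sea, and each island gave 2 of the controls. Flown males were held overnight in cages of their own, with food, and frozen 17 to 24 h (on average 20.5 h) after the flight treatment began. Controls were handled in the same way and frozen at the same interval after being brought into the treatment conditions, but were not made to fly. No genotype or transgene is named in the labels for any group. Age, rearing and the time that each butterfly spent flying are not given in the labels. The other butterflies were 28 females at 20 h (19 flown, 9 controls), 17 males at 1 h (12 flown, 5 controls) and females at 1 h (17 flown, 8 controls). They were used where the males were set against them, in fits and counts over all 85 butterflies, and for the scaling of levels. The females at 1 h entered only those fits, counts and scaling.

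The thorax carries the wings, and most of its mass is flight muscle, among the most energy-demanding tissues known in animals. Sustained flight in insects draws on sugars, lipids or amino acids and is backed by densely packed mitochondria. In this species flight capacity varies between individuals and has been studied as a trait of dispersal between habitat patches. The gene models carry project identifiers, and the files do not pair them with names, so roles are not given for single genes and tissue markers could not be checked. In whole-thorax RNA, fewer cells of a type and less RNA per cell cannot be told apart.

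Each butterfly was sequenced as a library with 450 nt inserts and a library with 650 nt inserts, whose read counts were summed. Totals per male ran from 2358794 to 6944328 counts over 14067 gene models with a read, and 36 gene models held 50% of the counts. The share of counts from the 650 nt library fell into 2 separate ranges. In 5 males (4 flown, and PT control 2) it lay between 40.96% and 48.66%, and in the other 10 (7 flown, 3 controls) between 59.55% and 63.27%. For this share, total counts, genes detected, the share of the 10 most abundant genes and the scaling factor, no difference between flown and control males passed an exact permutation test (2-sided, adjusted p from 0.421 to 0.549 over 5 measures). The design allows a smallest p of 0.000733. The main axis of variation among the males was the island. Scores on the first principal component (22.8% of variance) were separated by population to a fraction of 0.960, and those on the second (13.3%) by treatment to a fraction of 0.255.

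A single gene was called between flown and control males. Levels are given as CPM, a gene's read count relative to the scaled total of its butterfly. MCINXTMP_008291 stood at 449 and 386 CPM in AL controls and at 228 and 219.7 CPM in PT controls. Flown males spanned 61.3 to 149 CPM (median 109). Every flown male lay below every control, on both islands, and the control levels of AL lay above those of PT. The gene fell by 1.58 ± 0.26 on the log2 scale (SE; edgeR's quasi-likelihood test with population as a covariate, Benjamini-Hochberg adjusted p = 0.0312). Separate estimates were -1.91 ± 0.36 in AL (edgeR adjusted p = 0.0206) and -1.21 ± 0.35 in PT (edgeR adjusted p = 1). The 450 nt libraries alone gave -1.51 ± 0.27, which was not called (edgeR adjusted p = 0.0538), and the 650 nt libraries alone -1.76 ± 0.31 (edgeR adjusted p = 0.0429). DESeq2 gave -1.57 (adjusted p = 0.000345) and limma voom -1.58 (adjusted p = 0.0249).

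The direction of MCINXTMP_008291 held in each of the 30 settings tried, with log2 fold changes from -1.91 to -1.19, but its edgeR call was often lost. Leaving out 1 male at a time ended it in 11 of 15 runs, with adjusted p from 0.0551 to 0.356. The 4 exceptions were flown PT males 1, 3 and 6 and PT control 2. A fit to all 85 butterflies also lost the call, at -1.59 (edgeR adjusted p = 0.212). Among the 10 males with over 50% of counts from the 650 nt library the log2 fold change was -1.57 (adjusted p = 0.128), and with the share class as a term it was -1.57 (adjusted p = 0.0302). In females at 20 h the gene stood at 165 ± 90.7 CPM in controls (SD, n = 9) and 94.4 ± 53.9 in flown butterflies (n = 19), which did not pass the test (log2 fold change -0.87 ± 0.32, edgeR adjusted p = 0.15). In males at 1 h both groups averaged 170.0 CPM, and the log2 fold change was -0.04 ± 0.26. The 4 male controls at 20 h averaged 321 CPM, above the means of male controls at 1 h and of female controls at 20 h. Single butterflies of those control groups reached 328.5 CPM (males at 1 h) and 349.8 CPM (females at 20 h). The male estimate differed from the female one by -0.70 ± 0.51 (edgeR adjusted p = 0.76) and from that at 1 h by -1.50 ± 0.38 (edgeR adjusted p = 0.238), so neither difference passed the test.

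No gene was called higher in flown males by edgeR, although 206 (2.86%) were higher at an unadjusted p under 0.05. The nearest were taken by the smallest p among genes with the same direction on both islands. MCINXTMP_015961 stood at 109 and 239 CPM in AL controls and 181 and 246 CPM in PT controls. Flown males spanned 230.1 to 629 CPM (median 453), and 10 of 11 lay above the highest control. Its log2 fold change was 1.06 ± 0.26 (edgeR adjusted p = 0.324). The island estimates were close, 0.94 for AL and 1.19 for PT. In females at 20 h the same gene stood at 137 ± 44.1 CPM in controls (n = 9) and 241 ± 130.4 in flown ones (n = 19), not called either (0.80 ± 0.30, edgeR adjusted p = 0.159). Male and female estimates differed by 0.15 ± 0.50. In males at 1 h the estimate was -0.20 ± 0.27.

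MCINXTMP_007069 was a gene of low abundance. AL controls had 7.21 and 1.49 CPM and PT controls 0.608 and 0.851 CPM. Flown males spanned 1.51 to 33.7 CPM (median 12.1), and 8 of 11 exceeded the highest control. The log2 fold change was 2.74 ± 0.68 (edgeR adjusted p = 0.32), and both islands had a higher estimate. DESeq2 called it, at 2.78 (adjusted p = 0.00531), and also MCINXTMP_015961, at 1.07 (adjusted p = 0.0199).

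MCINXTMP_006685 came closest to a call among the other lower genes. AL controls stood at 549.7 and 333 CPM and PT controls at 672 and 389.8 CPM. Flown AL males had between 38.4 and 108 CPM, all far below the AL controls, whereas flown PT males had between 233 and 476 CPM and overlapped the PT controls. The log2 fold change over both islands was -1.78 ± 0.34 (edgeR adjusted p = 0.132). It was -2.66 ± 0.36 in AL (edgeR adjusted p = 0.00226) and -0.61 ± 0.36 in PT (edgeR adjusted p = 1). The difference between islands was -2.05 ± 0.55 (edgeR adjusted p = 0.524). Without PT control 2 the gene was called at -2.17 (edgeR adjusted p = 0.00875), and DESeq2 called it at -1.78 (adjusted p = 0.004).

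**Figure D1:**
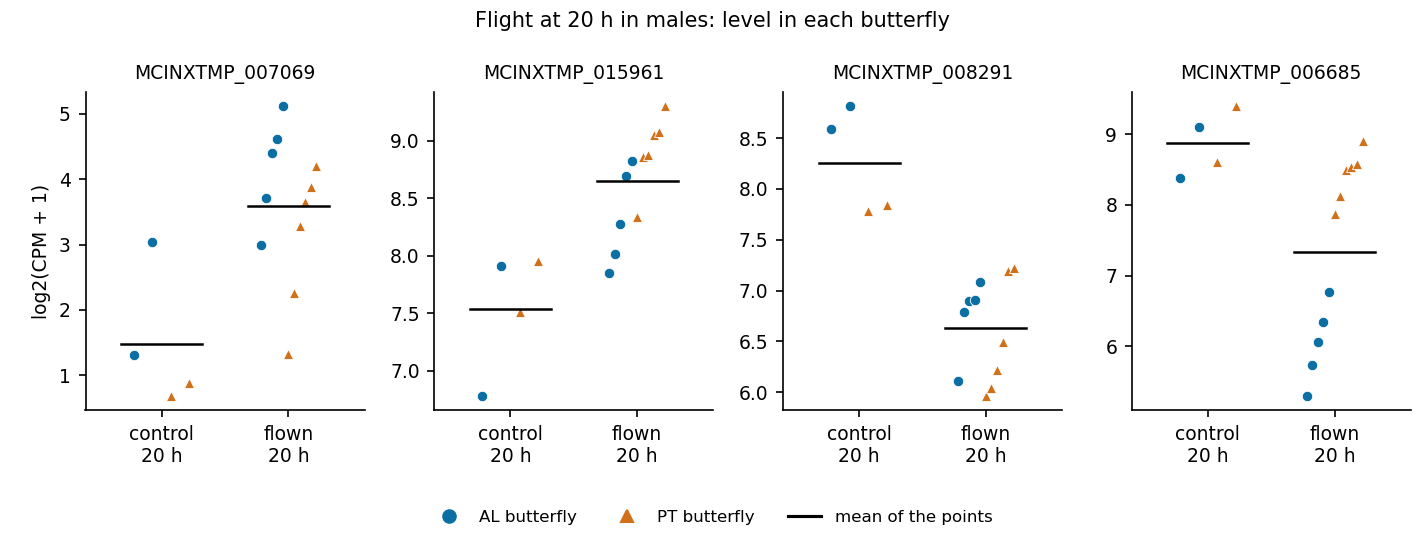
Level of 4 genes in each of the 15 males at 20 h as log2(CPM + 1), controls on the left and flown males on the right of each panel, with circles for AL, triangles for PT and a line at the mean of the points (each panel has its own vertical scale). MCINXTMP_008291 is the called gene, with its 11 flown males all below its 4 controls, and MCINXTMP_006685 splits by island among the flown males.

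Over the whole transcriptome the 1 call was 0.0139% of the 7191 genes tested. An unadjusted p under 0.05 was reached by 446 genes (6.2%), 206 higher and 240 lower (3.34%), where 5% would be 360 genes. This count depended on single controls. It was 275 of 7605 genes tested without AL control 1 and 287 of 7590 without AL control 2. Without PT control 1 it was 414 of 7646, and 722 of 7623 without PT control 2. The groups did not overlap for 14 genes (0.195%), 5 with every flown male above every control (0.0695%) and 9 with every flown male below (0.125%). With 11 against 4, labels placed at random would separate a gene fully in a given direction with a probability of 0.000733. Both counts were thus of the order that random labels give. Estimates exceeded 2-fold in 965 genes (13.4%). The median SE was 0.56 over all genes, 0.29 for those of at least 50 CPM and 0.93 for those under 5 CPM. Among the 28 females, with 9 controls, the median SE was 0.38 and 539 genes (8.2%) exceeded 2-fold. A 2-fold change was thus under 2 SE for a gene at the median error of the males.

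Other tools gave more calls. DESeq2 called 33 of the 14067 genes entered (0.235%), 18 higher (0.128%) and 15 lower (0.107%). It gives no adjusted p to genes of low count by a filter of its own, so these shares are not over the genes it adjusted. Of the 33, 32 had passed the edgeR filter. Limma voom with sample weights called 13 of 7191 (0.181%), 2 higher (0.0278%) and 11 lower (0.153%). The tools shared 7 of these, and MCINXTMP_008291 was called by all 3. A fit without a filter on low counts called 89 genes, 34 higher and 55 lower, of which 79 had passed the filter. With the library share class as a term 3 genes were called, and without the 5 males of low share 1 gene was called, higher in flown males. Leaving out PT control 2, itself one of those 5, raised the count to 7 (3 higher, 4 lower). Without flown PT male 1 or 3 it was 2. In the 11 runs that ended the call of MCINXTMP_008291 no gene was called by edgeR, with 275 to 460 genes at an unadjusted p under 0.05.

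The male sets were then read in butterflies that had no part in choosing them. Of the 18 genes that DESeq2 called higher in flown males, 16 were higher in flown females at 20 h, with a median log2 fold change of 0.91 against -0.01 over all genes tested in both. In AL females 16 of these 18 were higher and in PT females 14, as differences of mean log2(CPM + 1). In males at 1 h 6 of the 18 were higher, with a median of -0.20. Of the DESeq2 genes lower in flown males, 13 of 15 were tested in females and 10 of them were lower there, with a median of -0.38. Of the 9 genes without overlap on the lower side, 6 were lower in females with a median of -0.11. Of the 5 without overlap on the higher side, 4 were higher in females with a median of 1.11. All genes together were higher in 49.4% of cases in females. The wider sets chosen by an unadjusted p were read in the same way. Of the 206 higher in males 187 were tested in females and 114 were higher there (61%, median 0.16), and of the 240 lower in males 126 of 217 were lower there (58.1%, median -0.09).

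Estimates for the most abundant transcripts were more often lower than higher in flown males. Of the 272 genes of at least 500 CPM, 94 had a higher estimate in flown males (34.6%, median log2 fold change -0.12), against 50.8% of all genes tested (median 0.01). Of these 272 genes 28 passed an unadjusted p under 0.05 (10.3%), 13 of them higher, against 6.2% of all genes tested and 12.5% of those between 50 and 500 CPM. With DESeq2 size factors the share was 36%. It was 32% in AL males and 56.6% in PT males, and 38.6% in females at 20 h. Leaving out AL control 1 moved it to 47.4% with a median of -0.01, so the low share was not kept without that butterfly. The gene model with most reads, MCINXTMP_002713, stood at 137200 and 101700 CPM in AL controls and 78700 and 38110 CPM in PT controls. Its flown males spanned 48830 to 164400 CPM (median 78860), overlapping the controls (log2 fold change 0.11 ± 0.32, edgeR adjusted p = 0.992). The next, MCINXTMP_013486, stood at 45030 and 52870 CPM in AL controls and 54700 and 31060 in PT controls. Its flown males spanned 20570 to 60220 CPM (median 37930), and the fitted change was -0.26 ± 0.24 on the log2 scale (edgeR adjusted p = 0.965).

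Flight effects were next compared between the islands, with 2 controls on each. In a fit with a mean for every island and treatment, AL males gave 24 calls of 7191 (0.334%), 5 higher (0.0695%) and 19 lower (0.264%), and PT males 1 call (0.0139%), lower. The difference between the island effects was called for 1 gene (0.0139%), with 467 genes at an unadjusted p under 0.05 (6.49%). Estimates for AL and PT had the same sign in 51.9% of the 7191 genes. The AL calls were then read in the other groups. Of these, the PT males had shared the fit that made the calls, with its filter and its estimate of spread, and the rest had not. Of the 19 genes lower in AL males, 13 were lower in PT males (median -0.59), where 47.7% of all genes were lower. In AL females 14 of the 19 were lower (median -0.24) and in PT females 11 (median -0.22), against 51.6% and 51.1% of all genes. In males at 1 h 10 of 18 were lower (median -0.07), against 49.4% of all genes. Of the 5 genes higher in AL males, 3 were higher in PT males (median 0.01), near the 52.2% of all genes. All 5 were higher in AL females (median 0.77) and 4 in PT females (median 0.27), against 48.4% and 48.9% of all genes, and 1 of 5 was higher in males at 1 h (median -0.15), against 50.6%. Fitted on their own, the 7 AL males gave 0 calls with edgeR, where 637 passed an unadjusted p under 0.05. The 8 PT males gave 1 call. For the difference between islands, 4 genes were called without flown AL male 4, 2 without AL control 1, 2 without PT control 2, and 0 without AL control 2 (409 at an unadjusted p under 0.05).

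MCINXTMP_008074 was the gene whose response differed. PT controls stood at 381 and 449 CPM and flown PT males at 3.55 to 15.6 CPM with a median of 6.82. AL controls stood at 21.6 and 17.45 CPM and flown AL males at 37.4 to 158 CPM with a median of 70.6. The groups did not overlap on either island and lay in opposite order. The log2 fold change was -5.62 ± 0.53 in PT (edgeR adjusted p = 1.09e-05) and 2.25 ± 0.66 in AL (edgeR adjusted p = 0.166). The difference, AL minus PT, was 7.86 ± 0.97 (edgeR adjusted p = 0.000744). It stayed called in 14 of 15 runs that left out a male, and was 7.72 without AL control 2 (edgeR adjusted p = 0.104). In a fit to all 85 butterflies the size was alike at 7.85 but the error rose to 2.38 (edgeR adjusted p = 0.574).

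The spread of this gene outside the 15 males was wide. The 5 PT female controls at 20 h spanned 4.83 to 185 CPM (median 6.38), and the 9 flown PT females ran from 0.719 to 58.7 CPM. The 3 PT male controls at 1 h ran from 6.22 to 47.7 CPM and the 6 flown PT males at 1 h from 11.3 to 319 CPM. Over 100 CPM, a level chosen after the values were seen, lay 8 of the 45 PT butterflies, 4 of 14 controls, 4 of 16 flown at 1 h and 0 of 15 flown at 20 h. Among AL butterflies 11 of 40 lay above it. Both PT male controls at 20 h were thus among a minority of PT butterflies with a high level, while the median over PT was 8.51 CPM and over AL 45.5 CPM. The AL male controls at 20 h, at 21.6 and 17.45 CPM, lay below every other AL control. The lowest of those had 87.5 CPM in males at 1 h, 33.4 CPM in females at 1 h and 44.1 CPM in females at 20 h. In AL females at 20 h the median was 58.1 CPM in controls and 18.0 CPM in flown butterflies, the opposite order to AL males.

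The other genes nearest to an island difference were not called. MCINXTMP_011749 stood at 2.88 and 1.70 CPM in AL controls and at 10.2 to 101 CPM in flown AL males (median 42.9), with no overlap. Both of these controls lay below the AL male controls at 1 h (14.4 to 23.8 CPM) and the AL female controls at 20 h (4.835 to 52.2 CPM). In PT the controls stood at 4.25 and 18.0 CPM and the flown males at 6.27 to 16.0 CPM, within the control range. The log2 difference of effects was 4.50 ± 1.00 (edgeR adjusted p = 0.249). MCINXTMP_007072 had the opposite sign in the islands, at -1.60 ± 0.38 in AL and 1.37 ± 0.43 in PT. AL controls stood at 125 and 338 CPM against 51.3 to 117 CPM in flown AL males, and PT controls at 35.25 and 54.4 CPM against 91.5 to 156 CPM in flown PT males (difference -2.96 ± 0.59, edgeR adjusted p = 0.191). MCINXTMP_009551 had 0 reads in both PT controls and 4 to 13 reads in each flown PT male. The flown mean of 2.165 CPM was 6.62-fold a floor of 3 reads over both controls (0.327 CPM), which leaves out the spread between butterflies. Other PT groups had similar means, 2.47 CPM in male controls and 1.53 CPM in flown males at 1 h. In PT females at 20 h the means were 2.88 CPM in controls and 2.45 CPM in flown butterflies. No butterfly of these other groups had 0 reads. AL levels overlapped, at 12.7 and 16.4 CPM in controls and 9.95 to 21.6 CPM in flown males. The fitted difference of -6.18 ± 1.32 (edgeR adjusted p = 0.24) depends on the prior count and is no measure of size.

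**Figure D2:**
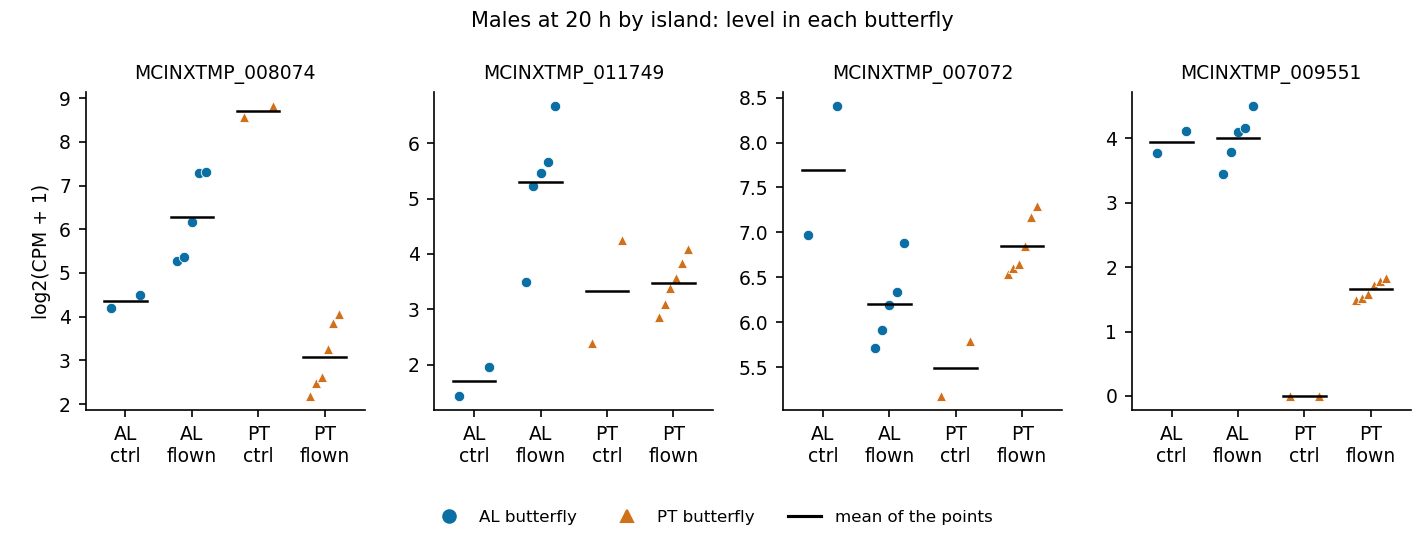
Level of 4 genes in the 15 males at 20 h as log2(CPM + 1), split into AL controls, flown AL males, PT controls and flown PT males, with a line at the mean of the points (each panel has its own vertical scale). MCINXTMP_008074, the called gene, lies lower in flown PT males than in PT controls and higher in flown AL males than in AL controls, and each island has 2 controls.

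Males and females at 20 h were compared by testing the difference between their flight effects in all 85 butterflies. No gene was called by edgeR (0% of 7643), with 639 at an unadjusted p under 0.05 (8.36%), while DESeq2 called 23 and limma voom 5. The median SE of this difference was 0.72. There were 2 calls without AL female control 2, flown PT male 2, flown PT male 6 or PT male control 2, and 1 without AL female control 4 or flown AL male 2. The sexes also differed in library share. Under 50% of counts came from the 650 nt library in 19 of the 28 females at 20 h and in 5 of the 15 males. The part of this share in differences between the sexes was not tested.

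MCINXTMP_007139 came closest. In males the controls had 35.8 and 16.4 CPM in AL and 19.75 and 10.55 CPM in PT. Flown males spanned 1.54 to 25.15 CPM (median 8.22), and 9 of 11 lay below the lowest control. In females the order was opposite, with a median of 5.84 CPM in controls (1.15 to 18.9, n = 9) and 21.97 CPM in flown butterflies (7.05 to 58.0, n = 19). The log2 fold change was -1.30 ± 0.52 in males (edgeR adjusted p = 0.747) and 1.67 ± 0.37 in females (edgeR adjusted p = 0.0137). Males minus females gave -2.97 ± 0.62 (edgeR adjusted p = 0.054). DESeq2 gave an adjusted p of 0.00598 and limma voom 0.00192. At 1 h, male controls had a median of 8.80 CPM and flown males 8.10 CPM. Both were near the flown males at 20 h, whereas the 4 male controls at 20 h had a median of 18.1 CPM.

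MCINXTMP_006619 stood at 74.0 and 36.4 CPM in AL male controls and at 13.1 and 3.23 CPM in PT male controls. Flown males reached at most 6.33 CPM with a median of 0.836, and 5 of 11 had no read, with overlap only at the lowest PT control. All 28 females had reads, with medians of 14.1 CPM in controls and 16.6 CPM in flown butterflies. Males minus females gave -4.13 ± 0.90 (edgeR adjusted p = 0.0628), called by DESeq2 (adjusted p = 0.00598) and limma voom (adjusted p = 0.000106). At 1 h, male controls had a median of 2.42 CPM and flown males 2.38 CPM.

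In the other direction, MCINXTMP_013417 stood at 906 and 672 CPM in AL male controls and 1567 and 770.4 CPM in PT male controls. Flown males spanned 963 to 2779 CPM (median 1810.0), and 8 of 11 lay above the highest control. Females had medians of 1398 CPM in controls and 849 CPM in flown butterflies. The log2 fold change was 0.86 ± 0.29 in males and -0.64 ± 0.18 in females, a difference of 1.51 ± 0.39 (edgeR adjusted p = 0.18). MCINXTMP_011123 had a similar order, with medians of 108 CPM in male controls and 159.6 CPM in flown males. Its female means were 179 ± 64.5 CPM in controls and 121 ± 56.2 CPM in flown females (difference 1.29 ± 0.34, edgeR adjusted p = 0.18). DESeq2 called both of these genes.

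**Figure D3:**
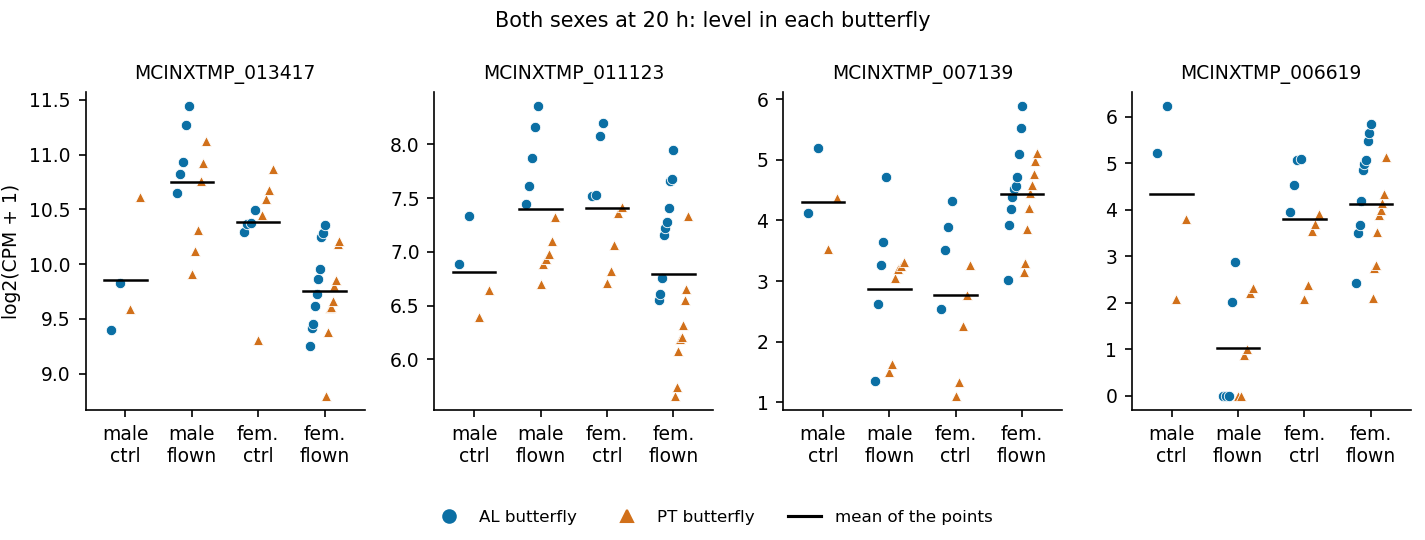
Level of 4 genes at 20 h as log2(CPM + 1) in male controls (4), flown males (11), female controls (9) and flown females (19), with circles for AL, triangles for PT and a line at the mean of the points (each panel has its own vertical scale). The means of flown and control butterflies lie in opposite order in the sexes, and no difference was called by edgeR.

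Genes called in females were then read in the males. Females at 20 h gave 133 calls of 6576 genes (2.02%), 81 higher (1.23%) and 52 lower (0.791%), and 132 of these were tested in males. The count was 84 without AL female control 4, 75 without PT female control 2 and 60 without PT female control 4. The female values chose this list and are given only for scale. Of 80 genes called higher in females, 49 were higher in males (61.3%), with a median log2 fold change of 0.22, against 50.5% and 0.01 over the 6401 genes tested in both sexes. The female median was 1.28. In PT males 58 of the 80 were higher and in AL males 50. At an unadjusted p under 0.05, 5 of the 80 were higher and 1 lower in males, beside 187 higher and 217 lower of the 6401 genes. The count lay between 47 and 59 when each male was left out and was 56 of 79 without the males of low 650 nt share. Of the 52 genes called lower in females, 28 were lower in males with a median of -0.02, and between 24 and 32 when each male was left out.

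At 1 h the same lists lay the other way in males. Of 76 genes called higher in females at 20 h and tested in males at 1 h, 56 were lower in flown males (73.7%, median -0.19), against 49.2% of genes tested in all 3 comparisons (median 0.01). Of 52 genes called lower in females at 20 h, 36 were higher in flown males at 1 h (69.2%, median 0.17). Over all calls from the females, 28.1% of 128 had the same sign in males at 1 h, against 44.3% of the 6143 genes tested in both. In males at 20 h the share was 58.3% of 132, against 52.4% of 6401. These butterflies share no samples with the females.

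The genes with the largest female changes behaved unevenly in males. MCINXTMP_000474 had 6.97 and 3.83 CPM in AL male controls and 13.1 and 73.5 CPM in PT male controls. Flown males spanned 10.2 to 4899 CPM (median 52.6), and the 2 highest were flown AL male 2 at 4899 CPM and flown PT male 3 at 1811 CPM. The male log2 fold change was 4.34 ± 2.22 (edgeR adjusted p = 0.85), beside 2.83 ± 0.63 in females (edgeR adjusted p = 0.0154). MCINXTMP_011164 stood between 0.426 and 2.04 CPM in the male controls and between 0 and 221 CPM in flown males, with a median of 4.22 CPM. Its highest values were again in flown AL male 2 (221 CPM), flown AL male 1 (106 CPM) and flown PT male 3 (68.8 CPM). The male log2 fold change was 4.68 ± 2.08 (edgeR adjusted p = 0.787), beside 2.89 ± 0.66 in females (edgeR adjusted p = 0.0138). Flown AL male 2 and flown PT male 3 were both among the males with under 50% of counts from the 650 nt library. Flown AL males 3 and 4, also under 50%, had 87.9 and 19.3 CPM for MCINXTMP_000474 and 16.2 and 4.22 CPM for MCINXTMP_011164. PT control 2, the only control under 50%, had 73.5 CPM for MCINXTMP_000474 and 2.04 CPM for MCINXTMP_011164, the highest control level of each gene. Flown AL male 1 had a share of 60.2%. The part of this share in the levels was not tested.

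Of the genes lower in flown females, MCINXTMP_011024 fell from a median of 18.2 to 4.86 CPM in females. In males the controls stood at 7.02 to 25.0 CPM and flown males at 1.58 to 24.7 CPM with a median of 7.54. The estimate was -2.18 ± 0.42 in females (edgeR adjusted p = 0.00619) and -0.52 ± 0.55 in males (edgeR adjusted p = 0.965). MCINXTMP_013187 fell by 2.16 ± 0.48 on the log2 scale in females (edgeR adjusted p = 0.0137). In males its controls ranged from 4.57 to 19.6 CPM and its flown butterflies from 3.34 to 28.0 CPM, around a log2 fold change of 0.11 ± 0.62. The sexes differed by 1.68 ± 0.83 and 2.41 ± 1.02 for these genes (edgeR adjusted p = 0.59 and 0.503).

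**Figure D4:**
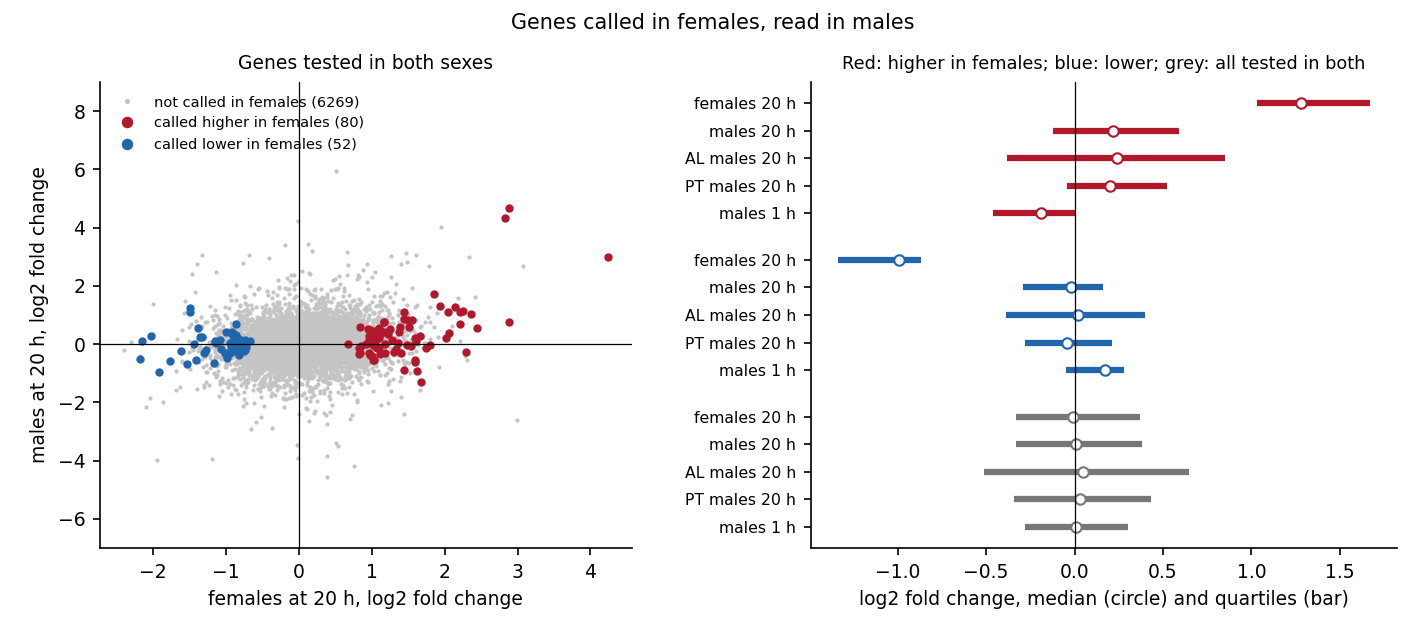
Left, log2 fold change of flown against control males (vertical) and females (horizontal) at 20 h for the 6401 genes tested in both, with the 80 genes called higher and the 52 called lower in females in colour. Right, median and quartiles of the log2 fold change of these lists, and of all genes tested in both sexes, in each set of butterflies. The red list has a median of 1.28 in females, 0.22 in males at 20 h and -0.19 in males at 1 h.

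Within males, the flight effect at 20 h was tested against that at 1 h in 32 butterflies with separate controls at each time. No gene was called by edgeR (0% of 8030, 452 at an unadjusted p under 0.05, 5.63%) or by limma voom, and DESeq2 called 26. Leaving out PT male control 2 at 20 h gave 5 calls and leaving out PT male control 1 at 1 h gave 2. Flight at 1 h on its own gave no call by edgeR either (0% of 6577, 356 at an unadjusted p under 0.05, 5.41%). Estimates at 20 h and at 1 h had the same sign in 52.1% of 6382 genes.

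The nearest genes lay in opposite order at the times. MCINXTMP_006587 stood at 47.3 and 18.1 CPM in AL controls at 20 h and 32.8 and 57.5 CPM in PT controls. The flown males of 20 h lay between 27.0 and 421 CPM, around a median of 119, and 10 of 11 lay above the highest control. At 1 h controls had a median of 47.1 CPM and flown males 27.5 CPM. The log2 fold change was 1.72 ± 0.50 at 20 h and -0.99 ± 0.32 at 1 h, a difference of 2.74 ± 0.60 (edgeR adjusted p = 0.13). In females at 20 h this gene rose by 1.86 ± 0.30 (log2; edgeR adjusted p = 0.00159), from a median of 22.1 to 89.6 CPM, and the sexes differed by -0.09 ± 0.62.

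MCINXTMP_002242 had medians of 20.7 CPM in controls and 49.1 CPM in flown males at 20 h, and of 35.2 CPM in controls and 16.3 CPM in flown males at 1 h. The difference of effects was 1.94 ± 0.40 (edgeR adjusted p = 0.13), and in females at 20 h the log2 fold change was 1.22 ± 0.41. MCINXTMP_010750 went the other way, with 63.2 and 72.8 CPM in AL controls, 73.5 and 185 CPM in PT controls and 10.3 to 67.35 CPM in flown males at 20 h. At 1 h its medians were 56.0 CPM in controls and 124 CPM in flown males (difference -2.35 ± 0.50, edgeR adjusted p = 0.13). Females at 20 h had -0.98 ± 0.31 (edgeR adjusted p = 0.0841). For MCINXTMP_003149 medians at 20 h were 44.1 CPM in controls and 38.8 CPM in flown males, and at 1 h 33.55 CPM and 77.6 CPM, so its difference of -1.83 ± 0.44 (edgeR adjusted p = 0.198) lay mostly at 1 h. DESeq2 called all 4 of these genes.

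**Figure D5:**
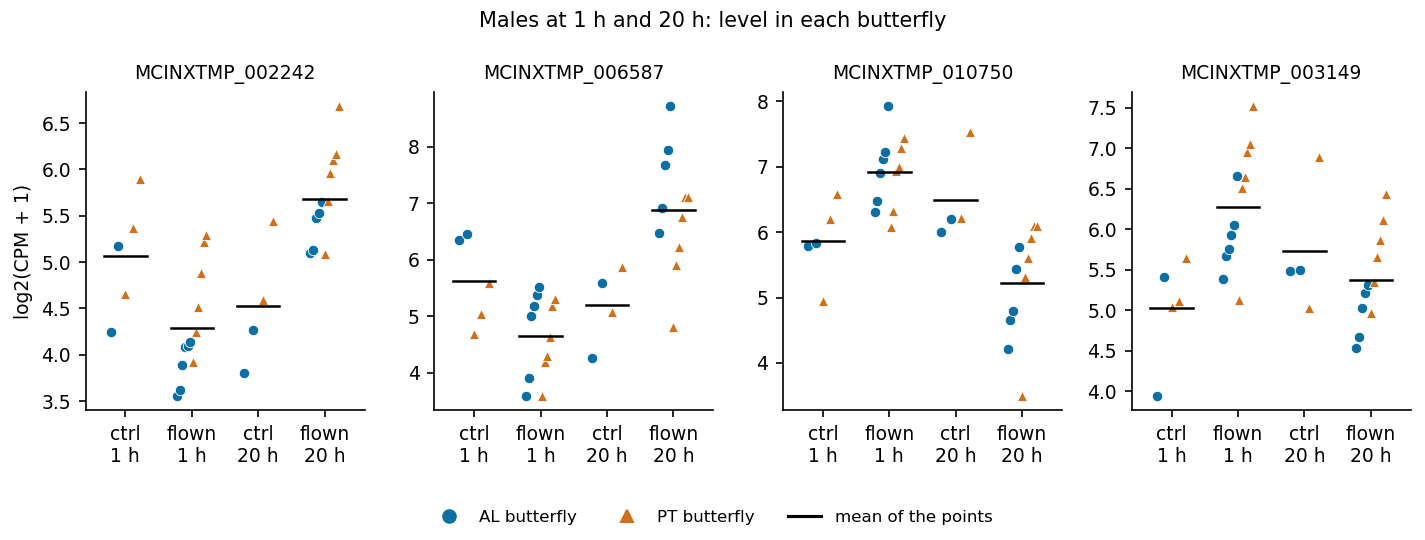
Level of 4 genes in the 32 males as log2(CPM + 1) in controls and flown butterflies at 1 h and at 20 h, with circles for AL, triangles for PT and a line at the mean of the points (each panel has its own vertical scale). The means of flown males lie on opposite sides of the controls at the times for MCINXTMP_006587, MCINXTMP_002242 and MCINXTMP_010750, and no difference was called by edgeR.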

How the data were processed

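Per the labels' protocols, thorax RNA went into strand-specific polyA-anchored libraries of 450 and 650 nt inserts. The submitters' processing notes name CASAVA 1.8, TopHat2 2.0.5 and edgeR. No source used here gives the genome build, the counting tool or whether strand was used, so reads of overlapping or near-identical genes may be split. The authors deposited raw read counts per gene model and library, 16667 models each. They also deposited a normalized table of 8258 genes, a signal equal to summed counts times 1 factor per butterfly in 100% of the values of the 15 males (tolerance 0.0006 plus 1e-06 of the value). Its other 70 columns were not used.

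Counts of both libraries were summed per butterfly, the replicate. All 30 male libraries at 20 h lay closest to the other library of their butterfly. Genes were filtered with filterByExpr, scaled by TMM and tested with edgeR 4.0.16 (quasi-likelihood, robust, R 4.3.3), population as a covariate, Benjamini-Hochberg adjusted p under 0.05. Each SE is the size of the log2 change over the root of its F statistic. Biological variation among the males was a common coefficient of 0.658. CPM used TMM scaling over all 85 butterflies. Alternatives used DESeq2 1.42.0 and limma 3.58.1. Butterflies are separate individuals, and their numbers only name them. The procedure was tested on simulated counts with the same spread for every gene and the same control level on both islands. Its error rates on counts as uneven as the real ones were not measured.

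Named genes were, per comparison, the 2 largest rises and 2 largest falls among calls of at least 5 CPM (males: same direction on both islands), filled up by smallest p and given as not called, plus the 2 most abundant. None of the identifiers matched the reference, so gene lists by function and cell-type markers were not analysed here. The comparison and its lists were chosen with earlier results of these data known.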

Additional observations from a re-analysis of the deposited data

Results flagged for a closer look

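At 20 h, 81 sets of values in male controls (4), flown AL males (5) and flown PT males (6) were checked for a butterfly far from the rest. Chance flags about 1 in 20 sets of normally distributed values. Skewed CPM of genes chosen in these data need not keep that rate, so the count is not set against it. Of the sets, 11 were marked. In male controls at 20 h, 5 of these were PT control 2, at 185 CPM (184.6) for MCINXTMP_010750, 117 CPM (117.4) for MCINXTMP_003149, 18.03 CPM for MCINXTMP_011749, 73.5 CPM for MCINXTMP_000474 and 46.26% of counts from the 650 nt library. AL control 1 stood apart at 7.208 CPM for MCINXTMP_007069. Flown PT male 3 stood apart among flown PT males at 68.81 CPM for MCINXTMP_011164, 1811 CPM for MCINXTMP_000474 and 43.16% of counts from the 650 nt library. Flown AL male 2 stood apart among flown AL males at 4899 CPM for MCINXTMP_000474 and 21.0 CPM for MCINXTMP_011024. The flight effect of MCINXTMP_008074 differed between AL and PT males by 7.86 on the log2 scale, by the test of that difference.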

How the results depend on the processing

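For flight at 20 h in males (1 call) the count was 89 without a filter on low counts, 33 by DESeq2, 13 by limma voom, 3 in a fit to all 85 butterflies (MCINXTMP_008291 not among them, adjusted p = 0.212) and 4 without the population term. It was 3 with the 650 nt share class as a term, an alternative chosen after seeing the data. It was 0 in the 450 nt libraries alone (331 genes at an unadjusted p under 0.05) and 0 in AL males alone (637), both by edgeR, and 0 to 7 when 1 male was left out. For the difference between sexes (0 calls) the counts were 21 without a filter, 23 by DESeq2, 5 by limma voom, 1 in the 650 nt libraries and 0 to 2 with 1 of 24 butterflies left out (the 15 males and 9 female controls at 20 h; no flown female was left out). For the difference between times (0) DESeq2 gave 26, and leaving out 1 male gave 0 to 5. For the difference between islands (1) the counts were 67 without a filter, 20 by DESeq2, 3 by limma voom, 2 in the 450 nt libraries, 0 by edgeR in all 85 butterflies (443 at an unadjusted p under 0.05) and 0 to 4 with 1 male left out. For females (133) DESeq2 gave 341, limma voom 232, the 450 nt libraries 45, and leaving out 1 control 60 to 143. The cause of these changes was not tested. MCINXTMP_002713 changed sign in AL males alone (-0.43), in males with over 50% of counts from the 650 nt library (-0.04, chosen after seeing the data) and when 1 male was left out (-0.19, without PT control 2, to 0.35, without AL control 1). MCINXTMP_013486 changed sign in PT males alone (0.15). The 5 library measures kept their direction and did not pass the test in any run. No paired analysis was possible because the replicate numbers only name butterflies in accession order and pair none across groups. The 4 male controls limit every male estimate.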
